A study of Schizosaccharomyces pombe with 4 samples.

Results

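The subject is a set of 10 genes of fission yeast (Schizosaccharomyces pombe) that carry the switch from growth to mating and meiosis: ste11, mei2, ste4, gpa1, ras1, byr2, byr1, spk1, fus1 and pat1. They were taken by systematic identifier from a list drawn up with earlier results of these data known, and all 10 were found among the 5133 genes listed in at least 1 library. Total RNA was sequenced from 2 Y41F libraries and 2 wild type (WT) libraries, all from log-phase cultures in YEA, a rich medium, at 30 °C. No label says which protein Y41F alters, which from knowledge of the study is taken to be a tyrosine-to-phenylalanine substitution in histone H3. The Y41F libraries come from strains SPBB297 (library 1) and SPBB298 (library 2), so a difference between them cannot be told apart from a difference between strains. Both WT libraries come from strain KOR3006. A difference between Y41F and WT thus cannot be told apart from any other difference between these strains. The labels give no mating type, no other allele and no number of cultures, so p-values measure the spread between these libraries only, which may be technical within WT.

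Ste11 is the HMG-box transcription factor that turns on mating and early meiotic genes, among them mei2 and its own gene, and it is known to be induced when nitrogen runs out. In growing cells the Pat1 kinase holds both Ste11 and the RNA-binding protein Mei2 inactive. When pheromone binds its receptor, the G protein alpha subunit Gpa1 and the small GTPase Ras1 pass the signal to a MAP kinase cascade of Byr2, Byr1 and Spk1, with Ste4 as an adaptor that binds Byr2. Fus1 is the formin that builds the actin focus at which mating cells fuse. These cells were growing in rich medium, so the values are basal levels.

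The library totals were 23616464 and 22773955 expected counts in Y41F libraries 1 and 2, and 22260430 and 20845572 in WT libraries 1 and 2. Levels are FPKM as deposited, which corrects for the coding length of the gene, and changes are log2 fold changes of Y41F over WT with a standard error (SE) from edgeR. All 10 genes passed the filter on low counts. Of the 5076 genes tested, edgeR called 1, which is 0.0197%, at a Benjamini-Hochberg adjusted p under 0.05. None of the 10 genes was called, and their edgeR adjusted p lay between 0.508 and 0.992. At an unadjusted p under 0.05, edgeR gave 5 of the 10 genes (ste11, gpa1, fus1, byr2 and ste4), all with higher values in Y41F, where 4.91% of all genes met this rule with higher values in Y41F. The same 5 genes had higher values in both Y41F libraries than in either WT library, which held for 19.2% of all genes, and no member had lower values in both Y41F libraries, which held for 18.0% of all genes. The median log2 fold change was 0.32 over the 10 genes and 0.00 over all genes tested, and 9 of the 10 were above 0.

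**Figure D1:**
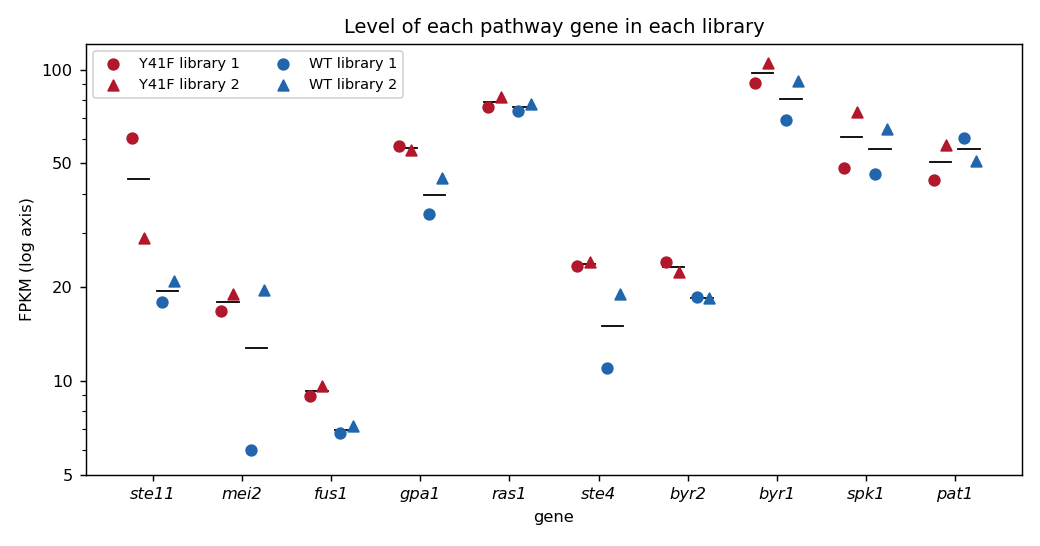
FPKM of each of the 10 genes (log axis) in Y41F libraries 1 and 2 (red) and WT libraries 1 and 2 (blue), with black bars for the mean of each group. Y41F library 1 stands at 60.3 FPKM for ste11, above the other 3 libraries, and WT library 1 stands at 6.02 FPKM for mei2, below the other 3.

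The gene for the transcription factor, ste11 (SPBC32C12.02), had 60.3 and 28.8 FPKM in Y41F libraries 1 and 2, against 18.0 and 20.9 FPKM in WT libraries 1 and 2. Both Y41F libraries were above both WT libraries, and Y41F library 1 was high. The means were 44.5 ± 22.3 FPKM in Y41F and 19.5 ± 2.06 FPKM in WT (SD, n = 2 each). The log2 fold change was 1.15 ± 0.34 (SE), a 2.22-fold difference that did not pass the test (edgeR adjusted p = 0.556). Only 0.788% of all genes had a larger log2 fold change. DESeq2 called ste11 (adjusted p = 0.0414), and with this tool 1.21% of all genes were called with higher values in Y41F. Without Y41F library 1 the log2 fold change was 0.52 (edgeR adjusted p = 0.191). Without Y41F library 2 it was 1.59, and edgeR called it (adjusted p = 7.31e-05), as it did 1.77% of all genes with higher values in Y41F, from a single Y41F library whose spread is assumed to be that of the WT libraries.

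The Y41F libraries lay far apart for ste11: library 2 over library 1 was -1.08 on the log2 scale, a difference larger than that of 98.0% of genes. The WT libraries differed by 0.14. In the comparison of libraries of the same number, ste11 was 1.66 higher on the log2 scale in Y41F library 1 than in WT library 1, and 0.45 higher in Y41F library 2 than in WT library 2.

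Genes whose pattern over the 4 libraries was closest to that of ste11, by Euclidean distance between log2 CPM values centred on each gene's mean, were SPAC2H10.01, ste7 (SPAC23E2.03c), SPBPB7E8.02, pyp2 (SPAC19D5.01) and wwm3 (SPBC660.05). Their distances were between 0.137 and 0.360, where ste11 itself lay 1.30 from a flat profile. SPAC2H10.01 had 87.7 and 40.7 FPKM in Y41F libraries 1 and 2, against 23.1 and 29.8 FPKM in WT libraries 1 and 2. The gene ste7, which is needed for mating, had 50.3 and 25.0 FPKM in Y41F libraries 1 and 2, against 19.6 and 20.3 FPKM in WT libraries 1 and 2. None of these 5 was called (edgeR adjusted p between 0.362 and 0.724). With 4 libraries likeness is easily met: 32 of 4860 genes had a Pearson correlation with ste11 of at least 0.99, given here as a description.

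Of the meiotic switch, mei2 (SPAC27D7.03c) had 16.8 and 19.1 FPKM in Y41F libraries 1 and 2, against 6.02 and 19.5 FPKM in WT libraries 1 and 2. The groups overlapped, and WT library 1 alone was low. The WT libraries differed by 1.62 on the log2 scale, more than for 99.2% of genes. The log2 fold change was 0.46 ± 0.48 (edgeR adjusted p = 0.889), and it was -0.13 without WT library 1 and 1.49 without WT library 2. The gene for the kinase that restrains Mei2 and Ste11, pat1 (SPBC19C2.05), had 44.3 and 57.1 FPKM in Y41F libraries 1 and 2, against 60.5 and 50.9 FPKM in WT libraries 1 and 2. It was the only one of the 10 with a log2 fold change below 0, at -0.19 ± 0.16 (edgeR adjusted p = 0.865), with overlapping groups. Leaving out Y41F library 2 gave -0.38 and leaving out WT library 2 gave -0.34, while it was -0.01 without either of the other libraries.

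At the top of the signalling chain, gpa1 (SPBC24C6.06), for the G protein alpha subunit, had 57.1 and 55.3 FPKM in Y41F libraries 1 and 2, against 34.4 and 44.9 FPKM in WT libraries 1 and 2. Its groups did not overlap, and the Y41F libraries lay closer together than the WT libraries. The log2 fold change was 0.46 ± 0.13 (95% interval 0.15 to 0.77), a 1.38-fold difference with the smallest edgeR adjusted p of the 10, 0.508. By contrast ras1 (SPAC17H9.09c), for the small GTPase, had 75.7 and 81.9 FPKM in Y41F libraries 1 and 2, against 74.0 and 77.9 FPKM in WT libraries 1 and 2. Its log2 fold change was 0.01 ± 0.09, with a 95% interval of -0.22 to 0.24 (edgeR adjusted p = 0.992). In the edgeR fits with another scaling the log2 fold change of ras1 was 0.00 to 0.05.

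The adaptor gene ste4 (SPAC1565.04c) had 23.5 and 24.1 FPKM in Y41F libraries 1 and 2, against 11.0 and 19.1 FPKM in WT libraries 1 and 2. The Y41F libraries agreed closely and the WT libraries did not, differing by 0.72 on the log2 scale, more than for 97.0% of genes. The log2 fold change was 0.62 ± 0.24 (edgeR adjusted p = 0.731). It was 0.31 without WT library 1 and 1.03 without WT library 2.

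The 3 kinase genes of the cascade had small differences that did not pass the test. First in line, byr2 (SPBC1D7.05), for the MAP kinase kinase kinase, had 24.1 and 22.4 FPKM in Y41F libraries 1 and 2, against 18.6 and 18.5 FPKM in WT libraries 1 and 2. Its groups did not overlap, and its log2 fold change was 0.28 ± 0.10 (edgeR adjusted p = 0.710).

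For the MAP kinase kinase gene byr1 (SPAC1D4.13), Y41F libraries 1 and 2 had 90.8 and 104.9 FPKM, against 68.8 and 91.9 FPKM in WT libraries 1 and 2. In both groups library 2 was the higher, the groups overlapped, and the log2 fold change was 0.24 ± 0.14 (edgeR adjusted p = 0.806). It was 0.09 without WT library 1 and 0.42 without WT library 2. The MAP kinase gene spk1 (SPAC31G5.09c) had 48.2 and 73.1 FPKM in Y41F libraries 1 and 2, against 46.4 and 64.5 FPKM in WT libraries 1 and 2. Here too library 2 was the higher in both groups, by 0.59 in Y41F and 0.40 in WT on the log2 scale, while the difference between groups was 0.09 ± 0.23 (edgeR adjusted p = 0.956). The sign of the spk1 fold change was negative without WT library 1 or without Y41F library 2.

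The fusion formin gene fus1 (SPAC20G4.02c) had 8.96 and 9.66 FPKM in Y41F libraries 1 and 2, against 6.79 and 7.15 FPKM in WT libraries 1 and 2. It was the lowest of the 10 genes by mean FPKM in both groups, and its libraries agreed closely within each group without overlap between groups. The log2 fold change was 0.37 ± 0.10 (95% interval 0.12 to 0.63; edgeR adjusted p = 0.514).

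**Figure D2:**
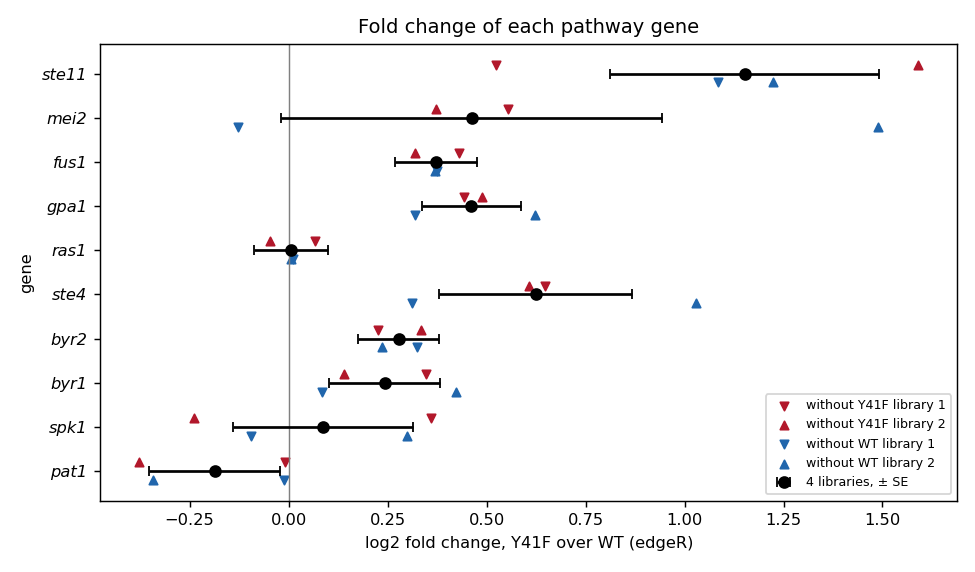
Log2 fold change of Y41F over WT for each gene from edgeR with all 4 libraries (black, ± SE) and with 1 library left out (red for a Y41F library, blue for a WT library). The ste11 value runs from 0.52 without Y41F library 1 to 1.59 without Y41F library 2, and the mei2 value from -0.13 without WT library 1 to 1.49 without WT library 2.

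Leaving out 1 library changed the members to different degrees. The log2 fold change ranged from 0.32 to 0.62 for gpa1, from 0.32 to 0.43 for fus1 and from 0.23 to 0.33 for byr2 over the 4 cases. For 6 of the 10 genes (ste11, ste4, gpa1, byr2, byr1 and fus1) it was above 0 in all 13 alternatives and in both ratios between libraries of the same number. The alternatives reuse the same 4 libraries, and the share of all genes meeting this rule was not counted. In Y41F library 1 over WT library 1 the median over the 10 genes was 0.32, with 7 above 0, and in Y41F library 2 over WT library 2 it was 0.22, with 9 above 0. Over all genes the medians were 0.00 and -0.01. The WT libraries also differed from each other over these genes, with a median of 0.22 for library 2 over library 1, about the size of the median differences between groups.

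**Figure D3:**
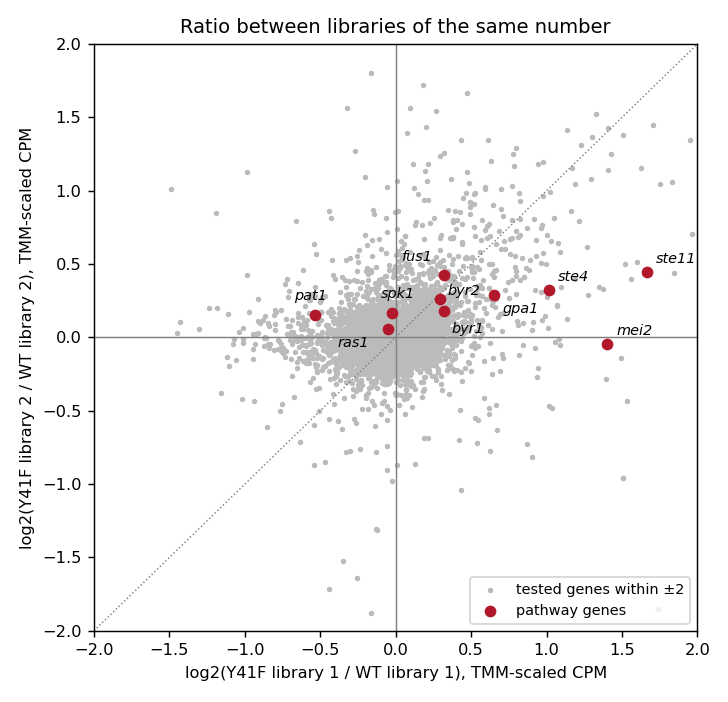
Log2 ratio of TMM-scaled CPM in Y41F library 1 over WT library 1 (horizontal) and in Y41F library 2 over WT library 2 (vertical), for tested genes within ±2 (grey) and the 10 genes (red). Both ratios of ste11 are above 0, at 1.66 and 0.45, while mei2 is at 1.40 and -0.05.

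Between libraries of 1 group, 5 of the 10 genes (mei2, ste4, spk1, byr1 and pat1) were above the 90th percentile of all genes for the difference between WT libraries. For the Y41F libraries 2 genes, ste11 and spk1, were. The regulator gene rgs1, whose product dampens Gpa1 signalling, was chosen after its values were seen: it had 19.9 and 22.0 FPKM in Y41F libraries 1 and 2, against 12.8 and 32.3 FPKM in WT libraries 1 and 2. Thus rgs1, mei2 and ste4 each had their lowest FPKM in WT library 1, which was not particular to them. The same held for ste11, gpa1, ras1, byr1, spk1 and fus1 by FPKM, which is not TMM-scaled. By FPKM byr2 was lowest in WT library 2 and pat1 in Y41F library 1. As TMM-scaled CPM, ras1 and spk1 were instead lowest in Y41F library 1. On that scale fus1 was about level in WT libraries 1 and 2, at 30.04 and 30.02 CPM. The share of all genes lowest in WT library 1 was not counted. In Y41F the 2 libraries were close for rgs1, mei2 and ste4.

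By level, 8 of the 10 genes lay below the median WT FPKM of all genes tested, and 5 of them (fus1, mei2, ste4, byr2 and ste11) were in the lowest 15%. The order by mean FPKM in Y41F was byr1, ras1, spk1, gpa1, pat1, ste11, ste4, byr2, mei2 and fus1. In Y41F the ranges of the 2 libraries overlapped for spk1 and gpa1, for gpa1 and pat1, for pat1 and ste11, and for ste4 and byr2, so these neighbours do not differ beyond their spread. The order in WT was byr1, ras1, pat1, spk1, gpa1, ste11, byr2, ste4, mei2 and fus1. In WT the ranges overlapped for byr1 and ras1, for pat1 and spk1, and for each neighbouring pair from ste11 down to fus1.

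Fission yeast has 2 other MAP kinase cascades, the Sty1 cascade for environmental stress and the Pmk1 cascade for cell integrity, which offer a comparison of level. The MAP kinase gene spk1 averaged 60.7 FPKM in Y41F and 55.5 FPKM in WT, while sty1 had 198.9 and 187.0 FPKM in Y41F libraries 1 and 2, against 175.7 and 194.2 FPKM in WT libraries 1 and 2. For pmk1 the values were 108.7 and 104.8 FPKM in Y41F libraries 1 and 2, against 109.7 and 99.5 FPKM in WT libraries 1 and 2. In every library spk1 was thus the lowest of the 3 MAP kinase genes. At the MAP kinase kinase step byr1 was the highest of byr1, pek1 and wis1 in every library: wis1 had 37.4 and 34.4 FPKM in Y41F libraries 1 and 2, against 40.6 and 35.2 FPKM in WT libraries 1 and 2.

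In the Sty1 list, 0 of 5 genes were called, with log2 fold changes between -0.13 (wis1) and 0.03 (win1). The gene wis4, highest of this list by mean CPM though not by FPKM, had -0.08 ± 0.10. The Pmk1 list also had 0 of 4 called, between -0.07 (pek1) and 0.02 (mkh1), with -0.04 ± 0.10 for the phosphatase gene pmp1 and -0.02 ± 0.10 for pmk1. In neither list did any gene have groups that did not overlap. Whether the pheromone cascade differed from these in its response to Y41F was not tested.

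**Figure D4:**
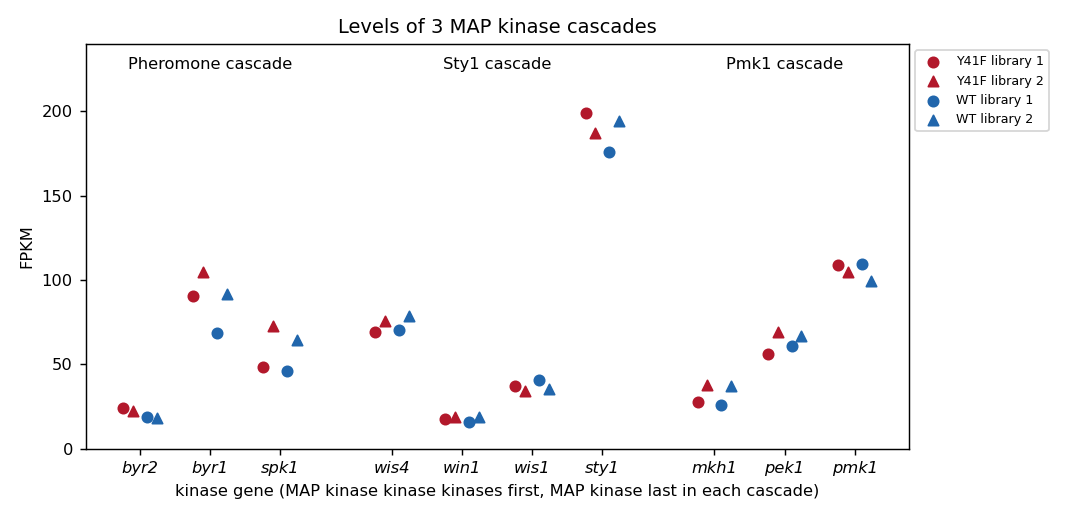
FPKM of the kinase genes of the pheromone, Sty1 and Pmk1 cascades in Y41F libraries 1 and 2 (red) and WT libraries 1 and 2 (blue). The MAP kinase gene sty1 is highest, between 175.7 and 198.9 FPKM, and spk1 lies between 46.4 and 73.1 FPKM.

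Further genes of the pathway were taken from lists based on general knowledge. Among 12 partners of the signalling proteins, 0 were called and 10 had log2 fold changes below 0 (median -0.05). The Ras1 exchange factor gene efc25 had 43.7 and 43.9 FPKM in Y41F libraries 1 and 2, against 49.7 and 52.4 FPKM in WT libraries 1 and 2, a log2 fold change of -0.27 ± 0.07 (edgeR adjusted p = 0.514). The scaffold gene scd2 had 0.27 ± 0.12, and the most abundant partner, the 14-3-3 gene rad24, had -0.05 ± 0.13.

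The cAMP branch, in which glucose sensing through protein kinase A represses ste11, had 0 of 10 genes called. Of these, 9 had log2 fold changes above 0, where 48.7% of all genes tested did, and the median was 0.23. The list was not divided by whether a gene raises or lowers this repression. The gene cgs1, named after its values were seen, had the largest, 0.68 ± 0.49 (edgeR adjusted p = 0.837). It had 6.64 and 2.46 FPKM in Y41F libraries 1 and 2, against 2.95 and 2.53 FPKM in WT libraries 1 and 2. The glucose receptor gene git3 had 42.7 and 37.7 FPKM in Y41F libraries 1 and 2, against 31.7 and 28.5 FPKM in WT libraries 1 and 2, a log2 fold change of 0.37 ± 0.12 (edgeR adjusted p = 0.663). The protein kinase A catalytic subunit gene pka1 had 77.8 and 75.3 FPKM in Y41F libraries 1 and 2, against 52.0 and 68.1 FPKM in WT libraries 1 and 2, a log2 fold change of 0.31 ± 0.12 (edgeR adjusted p = 0.735). The most abundant gene of this branch, cap1, for a protein that binds adenylyl cyclase, had 0.07 ± 0.12.

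Among 20 other genes listed as upstream regulators of ste11, including TOR and stress genes, 0 were called and the median was 0.03. Here ste7 had a log2 fold change of 0.87 ± 0.32 (edgeR adjusted p = 0.710). Whether ste7 acts above or below ste11 was not tested. The gene msa1, for an RNA-binding protein that restrains sexual differentiation, had 45.5 and 59.7 FPKM in Y41F libraries 1 and 2, against 66.0 and 66.1 FPKM in WT libraries 1 and 2, with -0.38 ± 0.14 (edgeR adjusted p = 0.710). The ribosome-associated gene cpc2, the most abundant, had -0.14 ± 0.14.

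Downstream, 0 of 8 mating, fusion and early meiosis genes were called, with a median of 0.14. The gene for the Pat1 inhibitor, mei3, had 1.39 and 2.16 FPKM in Y41F libraries 1 and 2, against 0.95 and 0.67 FPKM in WT libraries 1 and 2 (log2 fold change 1.06 ± 0.58, edgeR adjusted p = 0.797), from 14 and 21 expected counts in Y41F libraries 1 and 2, against 9 and 6 in WT libraries 1 and 2. The most abundant, the cell fusion gene cfr1, had 0.11 ± 0.09. In growing cells the Mmi1 protein directs meiotic transcripts to decay, and Mei2 is known to block it. Of the 9 genes of the Mmi1 elimination machinery 0 were called, with a median of -0.02. The exosome nuclease gene rrp6 had -0.17 ± 0.09, and pab2, for a poly(A)-binding protein, 0.14 ± 0.09. The poly(A) polymerase gene pla1, highest of this list by mean CPM, had -0.04 ± 0.09.

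Of 6 meiotic genes that Mmi1 targets 0 were called, with a median of 0.14. One of them, mcp5, for a protein that anchors dynein in meiosis, had 9.71 and 13.2 FPKM in Y41F libraries 1 and 2, against 6.40 and 6.97 FPKM in WT libraries 1 and 2, a log2 fold change of 0.73 ± 0.17 (edgeR adjusted p = 0.375). The cyclin gene crs1 had -0.47 ± 0.28. Over these partner, regulator and target lists together, 65 genes were tested, 37 had log2 fold changes above 0 and 28 below, and the median was 0.04.

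**Figure D5:**
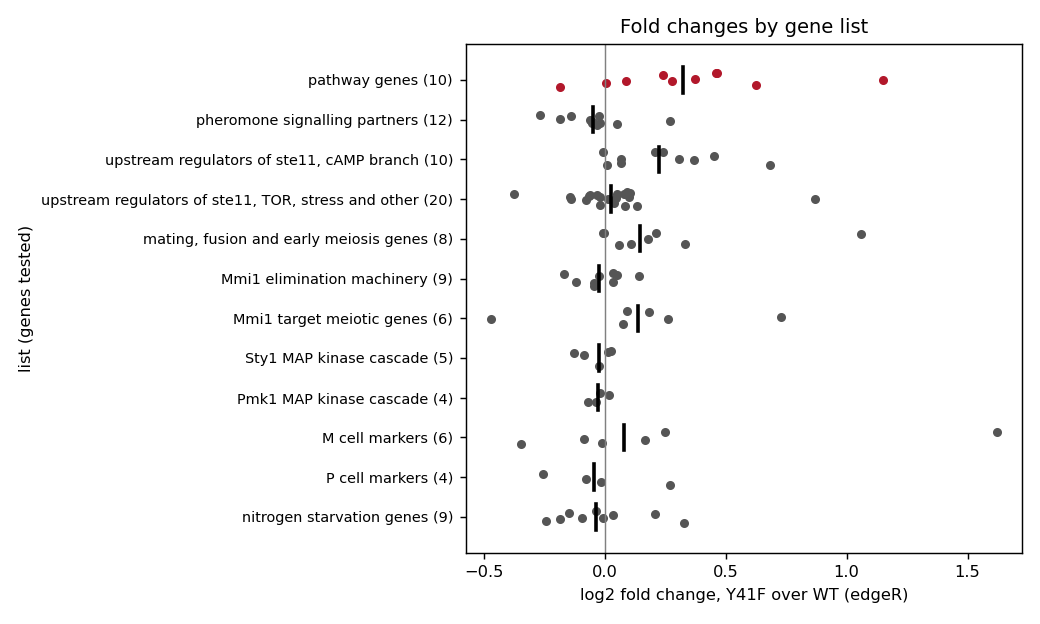
Log2 fold change of Y41F over WT (edgeR) of each tested gene, by list, with a black bar at the list's median. The medians are 0.32 for the 10 genes, 0.23 for the cAMP branch and -0.05 for the signalling partners, and no point is a called gene.

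Markers of the mating types and of starved cells were read in the same libraries, since the labels give no mating type. Both receptor genes were present: mam2, the receptor that M cells use, had 44.8 and 52.2 FPKM in Y41F libraries 1 and 2, against 45.3 and 49.3 FPKM in WT libraries 1 and 2. The P cell receptor gene map3 had 73.2 and 74.6 FPKM in Y41F libraries 1 and 2, against 71.2 and 73.3 FPKM in WT libraries 1 and 2. The pheromone genes were low, with mfm1 at 7 and 16 expected counts in Y41F libraries 1 and 2 and 7 in each WT library (not tested), and mfm2 at 39 and 30 in Y41F libraries 1 and 2, against 15 and 5 in WT libraries 1 and 2 (log2 fold change 1.62 ± 0.59, edgeR adjusted p = 0.710). The third M-factor gene, mfm3, lay the other way, at 15 and 19 in Y41F libraries 1 and 2, against 22 and 17 in WT libraries 1 and 2 (-0.35 ± 0.46, edgeR adjusted p = 0.909). The P-factor gene map2 had 51 and 68 in Y41F libraries 1 and 2, against 65 and 63 in WT libraries 1 and 2 (-0.25 ± 0.29, edgeR adjusted p = 0.897), and as TMM-scaled CPM both Y41F libraries were below both WT libraries. For the M-factor exporter gene mam1 the log2 fold change was 0.25 ± 0.10, and for mam3 it was -0.09 ± 0.16. By mean CPM mam3 was the highest M cell marker, though by FPKM mam2 was above it in every library. No marker was at 0 in all libraries.

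The summed level of the 7 M cell markers was 209 and 251 CPM in Y41F libraries 1 and 2, against 218 and 234 CPM in WT libraries 1 and 2, so the groups overlapped. The 4 P cell markers summed to 794 and 903 CPM in Y41F libraries 1 and 2, against 703 and 759 CPM in WT libraries 1 and 2. Here both Y41F sums were above both WT sums. Most of each sum came from the protease gene sxa1, with a log2 fold change of 0.27 ± 0.12 (edgeR adjusted p = 0.766). The other P cell markers, map2, map3 and map4, had log2 fold changes of -0.25, -0.01 and -0.08. The 9 nitrogen starvation genes summed to 433 and 583 CPM in Y41F libraries 1 and 2, against 421 and 608 CPM in WT libraries 1 and 2, with overlapping groups. None of them was called: the ammonium transporter genes amt3, amt1 and amt2 had log2 fold changes of 0.33 ± 0.11, -0.24 ± 0.21 and -0.01 ± 0.08 (edgeR adjusted p between 0.690 and 0.986). The summed level was higher in library 2 of both groups. So was isp5, named after its values were seen, with 14.11 and 46.08 FPKM in Y41F libraries 1 and 2, against 11.95 and 53.58 FPKM in WT libraries 1 and 2. As TMM-scaled CPM, amt1, per1, put4, isp6, isp7 and fnx1 were also higher in library 2 of both groups. For amt2 and amt3 this held in Y41F only. The meiotic genes that Mmi1 targets summed to 59.3 and 82.0 CPM in Y41F libraries 1 and 2, against 53.3 and 57.8 CPM in WT libraries 1 and 2. These sums did not overlap between groups either. The largest part of each came from mcp5, with 28.6 and 38.6 CPM in Y41F libraries 1 and 2, against 19.9 and 20.6 CPM in WT libraries 1 and 2. Of the other genes in this sum, crs1 was lower in both Y41F libraries than in either WT library. The groups overlapped for mei4, ssm4, rec8 and spo5. No sum was tested. The part of these markers in the values of the 10 genes was not tested. In such bulk samples, a change in a few cells and a change in all cells cannot be told apart.

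In the ASM294v3 annotation, all 10 genes are overlapped by a gene on the opposite strand, mostly a non-coding RNA, and 5 by a protein-coding gene, though no coding sequences overlap. The strand setting of the counting was not given in the sources used here. Of the protein-coding neighbours, SPAC1565.03, which overlaps ste4, had 17.0 and 18.1 FPKM in Y41F libraries 1 and 2, against 12.4 and 11.2 FPKM in WT libraries 1 and 2, a log2 fold change of 0.52 ± 0.19 (edgeR adjusted p = 0.710) beside 0.62 for ste4. The others had values closer to 0, with 0.01 for mrpl7 beside byr2, -0.05 for leu5 beside ras1, -0.06 for hem4 beside spk1 and -0.17 for caf16 beside fus1. The part of shared reads in these values was not tested.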

How the data were processed

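RNA-seq tables of 4 libraries were used. For each gene the authors deposited an expected count, which need not be whole, and its FPKM (per the file headers). Tools named in the submitters' processing notes, with no version or role, are RSEM, Bowtie and BWA, and the build is ASM294v2. Every deposited gene length is a multiple of 3 and is thus a coding length. A gene missing from 1 table was taken as 0, since the tables list only genes above 0. Gene names came from the ASM294v3 annotation (5100 of 5133 identifiers matched). As the builds differ, no coordinates or sequences are given.

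Rounded expected counts were tested with edgeR 4.0.16 (quasi-likelihood, TMM scaling, default expression filter, which removed 57 genes) in R 4.3.3, with Benjamini-Hochberg adjustment over 5076 genes. The SE is the fold change divided by the root of its F statistic. CPM values are TMM-scaled. The test was checked on simulated counts. DESeq2 1.42.0, limma 3.58.1 on log2(FPKM + 1), other scalings, filters and pseudocounts, a replicate block and leaving out each library were tried. An exact permutation test of 2 against 2 libraries cannot go below p = 0.333, so none was used. The genes and lists were chosen with earlier results of these data known. All 104 list entries matched. Besides the 10 genes, the text names from each list any called gene, or else the 2 with the smallest p, and the most abundant. Most abundant means the highest mean CPM of a list, which is not corrected for gene length. Also named are the 5 genes most like ste11 among those with a mean of at least 5 CPM. Others named are said to be chosen after seeing values, or serve as level comparisons, markers or overlapping neighbours. Counting error is large for genes with few counts, such as mei3 and the pheromone genes.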

Additional observations from a re-analysis of the deposited data

How the results depend on the processing

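The count of called genes over all genes, 1 of 5076 with edgeR, was 68 with DESeq2, 3 with limma on log2(FPKM + 1) and 87 with the replicate block, and from 0 to 197 when 1 library was left out. The count among the 10 genes, 0 with edgeR (5 at an unadjusted p under 0.05), was 1 with DESeq2, and from 0 to 1 when 1 library was left out; the gene was ste11 both times. Of the listed partners, regulators and targets, 0 were called with edgeR, 1 with the replicate block (mcp5, adjusted p = 0.0455), and from 0 to 2 when 1 library was left out (mcp5 without Y41F library 1; ste7 and msa1 without Y41F library 2). Libraries of the same number share only a number in the labels, though their deviations from the group means correlated at 0.445 over genes; with the replicate block ste11 had a log2 fold change of 1.06 (adjusted p = 0.0964) and 0 of the 10 genes were called.

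For ste11 the adjusted p over the 13 alternatives ranged from 7.31e-05 to 1.00, and its log2 fold change was 1.15 with DESeq2 and 1.59 without Y41F library 2, both called. The sign turned for mei2 (-0.13) and spk1 (-0.095) without WT library 1, and for ras1 (-0.047) and spk1 (-0.24) without Y41F library 2; over the 4 left-out libraries the ranges were -0.13 to 1.49 for mei2, -0.24 to 0.36 for spk1, -0.047 to 0.066 for ras1, -0.38 to -0.0099 for pat1 and 0.085 to 0.42 for byr1. In the ratios of libraries of the same number, added after seeing the data, it turned for ras1 (-0.048) and spk1 (-0.025) in library 1 and for mei2 (-0.046) and pat1 (0.15) in library 2. The causes were not tested. Of the 130 values of the 10 genes under the tested alternatives, 124 kept their sign and their side of the threshold, and of the 20 untested ratios 16 kept their sign. Library size as the only scaling moved the median of all genes to 0.04. With 2 libraries a group, the intervals of several genes span both no change and a change of over 1.5-fold.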
